A study of Mus musculus with 16 samples.

Results

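The pluripotency network of the mouse was described through 10 of its genes in 4 lines of induced pluripotent stem cells (iPSCs): Pou5f1, Nanog, Sox2, Esrrb, Zfp42, Tfcp2l1, Klf4, Sall4 and Prdm14, which encode transcription factors, and Lin28a, which encodes an RNA-binding protein. The 10 genes were taken by name from a list and not by a threshold on their values, though earlier results of these data were known when the list was made, and each was found in both tables, among 43984 genes in the histone table and 55471 in the methylation table. PTC11 and PTC12 were derived from kidney proximal tubule cells (PTC), and TTF1 and TTF4 from tail tip fibroblasts (TTF). The donor mice were littermates that carried SLC34a1-GCE and tdTomato together with rtTAROSA (neo-in) and OKMS-250, and they had received tamoxifen. In these mice doxycycline drives a transgene for Oct4 (the product of Pou5f1), Klf4, c-Myc and Sox2 once Cre has removed a neo cassette. Cre came from the SLC34a1 promoter in tubule cells and from an episomal plasmid in fibroblasts. Each line is 1 picked clone, grown without doxycycline at low passage, with LIF and on mouse embryonic fibroblast feeders. All lines carry extra copies of Pou5f1, Klf4 and Sox2 sequence in that transgene, and its part in the values at these 3 genes was not tested.

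There were 16 libraries in 4 assays, 1 a line for H3K4me3, H3K36me3 and mCpG. The 4 H3K27me3 libraries were 2 labelled PTC11, 1 of TTF1 and 1 of TTF4, with none of PTC12. Chromatin immunoprecipitation (ChIP-seq) measured H3K4me3, the mark of active gene starts, H3K36me3, the mark of transcribed gene bodies, and H3K27me3, the mark of Polycomb repression, in RPKM above input averaged over the peaks of a gene. Where no peak was kept the table is blank, and this is called no value here rather than 0. Nanopore sequencing measured mCpG, the fraction of methylated CpGs within 1000 bp of the transcription start site (TSS). The files give neither read counts nor coverage. The paper gives the same read number for each ChIP-seq sample, and nanopore depth is unknown. The only error is the spread between the 2 lines of an origin. H3K4me3 had a value, called present here, at 15114 to 19990 genes a line, with fewer in PTC11 and TTF4 than in PTC12 and TTF1. These counts include 193 to 453 genes a line that were listed at 0. Averaged over all genes, mCpG came to 0.372 and 0.482 in PTC11 and PTC12, and 0.379 and 0.649 in TTF1 and TTF4, so that TTF4 was the most methylated line at 75.4% of the 50657 genes with a fraction in every line. Of 14 markers of proximal tubule, 2 to 5 had H3K4me3 in a line, and Slc34a1 had none in any line. Of 16 fibroblast markers, H3K4me3 was present at 4 in PTC11 (summed level 12.6 RPKM), at 11 in PTC12 (40.7 RPKM), at 11 in TTF1 (44.7 RPKM) and at 8 in TTF4 (26.97 RPKM). Of these 16 markers, 3 had a value in all 4 lines and 5 had none in any line, Col3a1, Dcn, Lum and Postn among the latter. Col1a1 and Col1a2 had no value in PTC11. These levels are given because the feeders are fibroblasts, and their part in the results on TTF4 was not tested.

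Pluripotent cells keep their state through a small set of transcription factors that bind together at enhancers and activate one another's genes. Oct4 and Sox2 bind DNA as a pair next to each other, and Nanog joins them. In mouse cells grown with LIF, a further set (Klf4, Esrrb, Tfcp2l1, Prdm14 and Zfp42, also called Rex1) marks the naive state of the early epiblast, and most of that set is switched off when cells move towards the primed state, while Pou5f1, Sox2 and Lin28a remain active. Prdm14 represses de novo methyltransferase genes and FGF signalling, and Lin28a blocks the maturation of let-7 microRNAs. Unmethylated CpGs at a promoter usually go with H3K4me3, and dense methylation with its absence.

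The promoters show how unequal the 10 genes are in CpGs, which bears on what a fraction averages over. Within 1000 bp of the TSS there were 179 CpGs at Klf4, 171 at Sox2, 80 at Prdm14, 79 at Lin28a, 66 at Tfcp2l1, 57 at Sall4, 50 at Zfp42, 43 at Pou5f1, 42 at Esrrb and 34 at Nanog, against a median of 25 over 55348 genes. RefSeq promoters (GRCm38.p6, 250 bases before to 50 after the start site) were held for 8 of the 10 genes, not for Prdm14 and Sall4. Those printed here run 5′ to 3′ on the strand of the gene, with each CpG in capitals. Klf4 and Lin28a are shown as starts that stayed unmethylated in every line. Zfp42 is shown as a start with high methylation in TTF4, and Pou5f1 and Nanog as starts of the core. They lie at chr4:55532426-55532725 (Klf4, minus strand, 40 CpGs in the printed bases), chr4:134018767-134019066 (Lin28a, minus strand, 10 CpGs), chr8:43306960-43307259 (Zfp42, minus strand, 11 CpGs), chr17:35505782-35506081 (Pou5f1, plus strand, 11 CpGs) and chr6:122707239-122707538 (Nanog, plus strand, 4 CpGs).
Klf4: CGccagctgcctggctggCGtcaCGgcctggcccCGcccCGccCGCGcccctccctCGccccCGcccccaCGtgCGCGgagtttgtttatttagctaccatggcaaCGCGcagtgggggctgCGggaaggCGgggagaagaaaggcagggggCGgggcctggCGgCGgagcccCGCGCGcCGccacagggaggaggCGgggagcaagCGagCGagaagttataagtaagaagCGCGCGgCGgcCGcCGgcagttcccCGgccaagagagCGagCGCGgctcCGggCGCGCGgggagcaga
Lin28a: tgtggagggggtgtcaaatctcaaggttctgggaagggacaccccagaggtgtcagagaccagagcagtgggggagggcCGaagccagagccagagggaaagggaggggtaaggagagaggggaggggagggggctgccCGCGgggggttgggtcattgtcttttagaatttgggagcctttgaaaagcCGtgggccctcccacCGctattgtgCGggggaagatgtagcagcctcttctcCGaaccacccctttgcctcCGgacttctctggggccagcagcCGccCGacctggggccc
Zfp42: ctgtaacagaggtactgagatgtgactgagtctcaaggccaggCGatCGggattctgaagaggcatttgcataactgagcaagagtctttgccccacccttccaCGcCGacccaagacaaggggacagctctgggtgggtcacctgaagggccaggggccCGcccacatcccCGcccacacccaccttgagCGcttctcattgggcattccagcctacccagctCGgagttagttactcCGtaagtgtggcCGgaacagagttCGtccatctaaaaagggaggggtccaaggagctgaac
Pou5f1: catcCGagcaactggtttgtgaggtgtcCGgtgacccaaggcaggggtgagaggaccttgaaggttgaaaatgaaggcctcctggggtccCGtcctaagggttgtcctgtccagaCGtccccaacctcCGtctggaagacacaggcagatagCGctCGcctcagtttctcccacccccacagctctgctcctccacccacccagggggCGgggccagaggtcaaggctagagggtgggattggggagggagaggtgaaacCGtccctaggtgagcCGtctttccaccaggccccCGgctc
Nanog: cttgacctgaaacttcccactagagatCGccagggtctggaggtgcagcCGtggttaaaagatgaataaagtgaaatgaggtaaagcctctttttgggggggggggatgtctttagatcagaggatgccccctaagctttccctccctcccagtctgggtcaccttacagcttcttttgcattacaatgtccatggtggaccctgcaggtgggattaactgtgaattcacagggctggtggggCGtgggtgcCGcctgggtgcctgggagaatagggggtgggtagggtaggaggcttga

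Short motifs were searched on both strands of these windows, with positions counted from the start site of the promoter. The octamer ATTTGCAT, to which Oct4 and other POU factors bind, stood at position -186 at Zfp42 and was found in 1.74% of 32851 RefSeq promoters. Its last 7 letters alone, TTTGCAT, stood at -75 at Nanog, followed within the same stretch by the Sox motif ACAATG at -67, the arrangement of a joint Oct4 and Sox2 element. ACAATG also stood at -96 at Lin28a, on the strand opposite to the gene. The printed windows of Klf4 and Pou5f1 held none of these motifs. TTTGCAT was found in 4.63% of promoters and ACAATG in 12.6%. These matches are letters in a window and were not tested as binding sites.

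On mm10, Pou5f1 lies on chromosome 17 (35506018 to 35510772), Nanog on 6 (122707489 to 122714633), Sox2 on 3 (34650405 to 34652461), Esrrb on 12 (86361117 to 86521628), Zfp42 on 8 (43295063 to 43306980), Klf4 and Lin28a on 4 (55527143 to 55532466, and 134003330 to 134018841), Sall4 on 2 (168748332 to 168767943), and Tfcp2l1 and Prdm14 on 1 (118627945 to 118685168, and 13113457 to 13127163). All are protein coding, and the TSS used for methylation lies in an exon of each. Sox2 lies whole inside Sox2ot on the same strand, and Pou5f1, Lin28a and Sall4 overlap a noncoding transcript on the other strand, so histone values there cannot be given to 1 transcript. The histone table places the TSS of Sox2 400 bp away from that of the methylation table. The TSS listed for Esrrb is an upstream start, and the transcripts Esrrb-202 and Esrrb-203 start 60527 bp further on, outside the windows for both H3K4me3 and mCpG.

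Methylation of CpGs ranged widely over the 10 genes. Klf4, Lin28a and Sox2 were nearly free of it in all 4 lines. Prdm14 and Zfp42 were low in PTC11, PTC12 and TTF1 and high in TTF4, and Esrrb, at the upstream start, was methylated in every line. Neither origin stood apart from the other by the test over all genes.

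**Figure D1:**
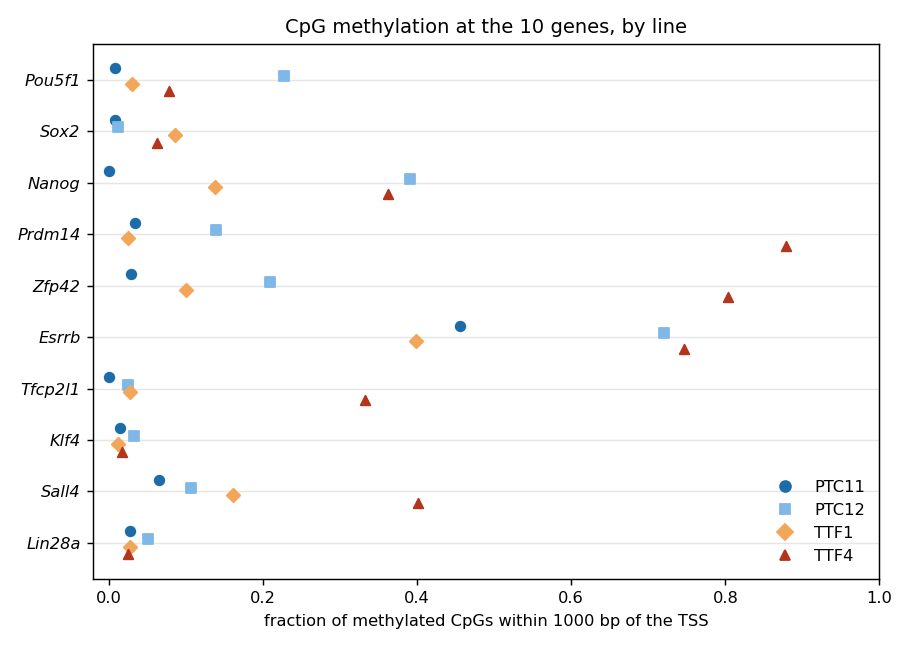
Fraction of methylated CpGs within 1000 bp of the TSS (x axis) at each of the 10 genes (y axis), 1 symbol a line with no error bar, since each line had 1 library. TTF4 (triangles) reaches 0.879 at Prdm14 and 0.803 at Zfp42, where the other lines stay at or below 0.209, while all 4 symbols of Klf4 and of Lin28a lie at or below 0.0511.

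Pou5f1, which encodes Oct4, the factor without which pluripotency is lost, had an mCpG fraction of 0.00756 (PTC11), 0.227 (PTC12), 0.0297 (TTF1) and 0.0786 (TTF4). PTC12 was the high line and the other lines were under 0.1. At Sox2, the partner of Oct4, the fraction was 0.00752 and 0.0114 in PTC11 and PTC12, and 0.0862 and 0.0630 in TTF1 and TTF4. Both TTF lines exceeded both PTC lines as deposited, and all values were low. How many of all genes share that order was not counted. With the mean of each line subtracted, the origins overlapped at Sox2, with a TTF minus PTC difference of -0.0219. Nanog, a homeodomain factor that stabilizes the network, was listed at 0 in PTC11, at 0.391 in PTC12, 0.138 in TTF1 and 0.362 in TTF4. High and low lines thus fell within each origin. Nanog holds the fewest CpGs of the 10 genes, so its fractions rest on the fewest sites.

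Among naive factors, Prdm14 had a fraction of 0.879 in TTF4 and 0.0254 in TTF1, against 0.0345 in PTC11 and 0.140 in PTC12. TTF4 lay 0.740 above the next line, while TTF1, of the same origin, was the lowest of the 4. Zfp42, a zinc finger gene used as a reporter of the naive state, stood at 0.0284 (PTC11), 0.209 (PTC12), 0.100 (TTF1) and 0.803 (TTF4). Here TTF4 lay 0.594 above PTC12, the next line. Tfcp2l1, a Grainyhead-family factor downstream of LIF, was listed at 0 and 0.0255 in PTC11 and PTC12, and 0.0274 and 0.333 in TTF1 and TTF4. Its TTF4 fraction was intermediate, 0.305 above the next line. In bulk DNA, partial methylation in every cell and a mixture of methylated and unmethylated cells cannot be told apart. Klf4, a zinc finger factor of the reprogramming cocktail, had 0.0169 in TTF4 and 0.0115 in TTF1, against 0.0142 in PTC11 and 0.0320 in PTC12. The 4 lines of Klf4 spanned less than those of any other of the 10 genes. Esrrb, an orphan nuclear receptor, had 0.456 (PTC11), 0.720 (PTC12), 0.399 (TTF1) and 0.747 (TTF4). PTC12 and TTF4 were the high lines there and PTC11 and TTF1 the low ones.

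Sall4, a zinc finger partner of Oct4, had 0.0649 and 0.106 in PTC11 and PTC12, and 0.161 and 0.401 in TTF1 and TTF4, with TTF4 0.240 above TTF1, the next line. Lin28a had 0.0249 in TTF4 and 0.0275 in TTF1, against 0.0271 in PTC11 and 0.0511 in PTC12. Lin28a and Prdm14 hold 79 and 80 CpGs in their windows, and yet in TTF4 they stood at 0.0249 and 0.879. Ordered by their mean over the 4 lines, the genes ran from Klf4 (0.0187), Lin28a (0.0327) and Sox2 (0.0420) through Pou5f1 (0.0858), Tfcp2l1 (0.0964), Sall4 (0.183), Nanog (0.223), Prdm14 (0.270) and Zfp42 (0.285) to Esrrb (0.581). The ranges over lines overlap for every pair of neighbours in this order, so no step of it is larger than the spread between lines.

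In 4 of the 10 genes (Prdm14, Zfp42, Tfcp2l1 and Sall4) the line TTF4 had a fraction more than 0.2 above the highest other line, as it did in 30.1% of all genes. That share of the 10 genes is near the background of this heavily methylated line. With the mean of each line subtracted first, 2 genes remained, Prdm14 and Zfp42. Genes that start low are the closer comparison. Among the 10813 genes under 0.2 in PTC11, PTC12 and TTF1, 5.02% exceeded 0.5 in TTF4. Prdm14 was the 1 of 6 such genes among the 10 that did, and Zfp42 missed this group because PTC12 stood at 0.209. The share fell with CpG number, from 40.8% of 593 genes with under 50 CpGs to 4.38% of 4585 genes with 50 to 99 CpGs and 1.77% of 5635 genes with 100 or more. Prdm14 belongs to the middle class by its 80 CpGs. Klf4, Lin28a and Sox2, 3 of the 10, were under 0.2 in every line, as were 12.4% of all genes.

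**Figure D2:**
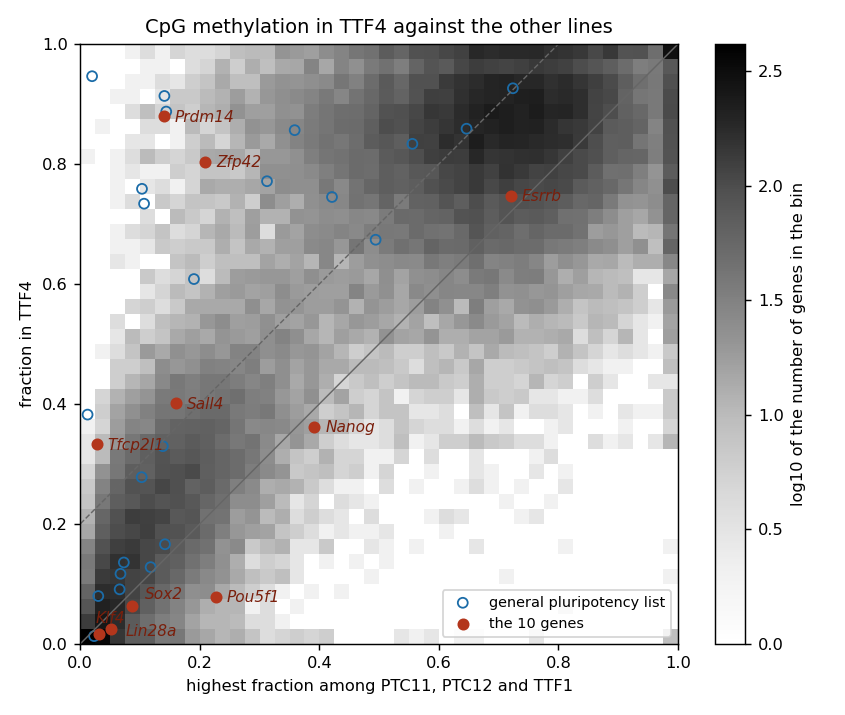
mCpG fraction in TTF4 (y axis) against the highest fraction among PTC11, PTC12 and TTF1 (x axis), with grey shading for the log10 number of genes in each bin over 50657 genes, filled points for the 10 genes and open points for other pluripotency genes. The solid line marks equal fractions and the dashed line a TTF4 excess of 0.2, above which lie Prdm14, Zfp42, Tfcp2l1 and Sall4.

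The comparison the study was built for is between origins, whether iPSCs keep marks of the cell they came from. For mCpG, fractions were centred on the mean of each line and TTF was tested against PTC with limma across all 50657 genes. None of the 10 genes passed an adjusted p of 0.05, against a background of 0.00395% of genes called (2 genes). In this setting none had an unadjusted p under 0.05 in limma, beside 2392 of the 50657 genes. In other settings Tfcp2l1 had an unadjusted limma p of 0.00956 without centring and 0.0436 with quantile normalization. Prdm14 had 0.0316 in limma among genes with a mean fraction under 0.5. None of these passed adjustment, and 1006, 2438 and 741 genes had an unadjusted p under 0.05 in those settings. At Prdm14 the fraction was 0.0870 ± 0.0744 (SD, n = 2) for PTC and 0.452 ± 0.604 (SD, n = 2) for TTF. The centred difference was 0.278 with a 95% interval from -0.0152 to 0.572 (limma adjusted p = 1.00, unadjusted p = 0.0627). At Zfp42 it was 0.119 ± 0.128 (SD, n = 2) for PTC and 0.452 ± 0.497 (SD, n = 2) for TTF, a centred difference of 0.246 with an interval from -0.0399 to 0.532 (limma adjusted p = 1.00, unadjusted p = 0.0903). At Prdm14, as deposited, TTF4 exceeded both PTC lines and TTF1 was below both. The other genes ran from -0.150 at Pou5f1, which was -0.261 without TTF1 and -0.0395 without TTF4, to 0.108 at Sall4, and the median of the 10 was -0.0274, beside -0.0100 over all genes, and turned to 0.0597 without centring and 0.0449 after quantile normalization.

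The differences at Prdm14 and Zfp42 rest on TTF4. With TTF1 left out, so that TTF4 alone stood against the PTC lines, the difference was 0.57 at Prdm14 and 0.46 at Zfp42. With TTF4 left out the difference was -0.0135 at Prdm14 and 0.0298 at Zfp42. Each of these fits holds 1 TTF line and no spread within TTF, so only the differences are given. After centring, TTF1 and TTF4 both exceeded PTC11 and PTC12 at Tfcp2l1 and Sall4, as at 15.0% of all genes. An exact permutation test of 2 lines against 2 cannot give a two-sided p below 0.33.

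H3K4me3 was present at 9 of the 10 genes in PTC11, PTC12 and TTF1 and at 7 in TTF4. Prdm14 and Zfp42 lacked a value in TTF4 alone, and both had an mCpG fraction over 0.5 there. Esrrb, also over 0.5 in TTF4, had no H3K4me3 in any line at its listed upstream TSS. At the 7 genes measured in every line the origins did not differ by the test.

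At Prdm14 H3K4me3 was 3.02 RPKM in PTC11, 3.06 in PTC12 and 4.16 in TTF1, with no value in TTF4. Zfp42 had 4.86 RPKM in PTC11, 2.54 in PTC12 and 3.11 in TTF1, and no value in TTF4. Of the 14824 genes with H3K4me3 in the other 3 lines, 7.52% had none in TTF4, and of the 9 pluripotency genes with it there, 2 had none. For PTC11, the other line with few H3K4me3 genes, the background was 8.01%, and none of the 10 genes lacked a value in PTC11 alone. This count was made after the values were seen. Over the genome the 905 genes with mCpG in all lines that had no H3K4me3 in TTF4 had a median TTF4 fraction of 0.818, against 0.211 at the 12710 genes that had it, and 87.8% of the former and 8.21% of the latter exceeded 0.5. Absence of H3K4me3 together with a fraction over 0.5 in TTF4 and under 0.2 in each other line, as at Prdm14, was found at 129 genes, 0.947% of 13615.

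**Figure D3:**
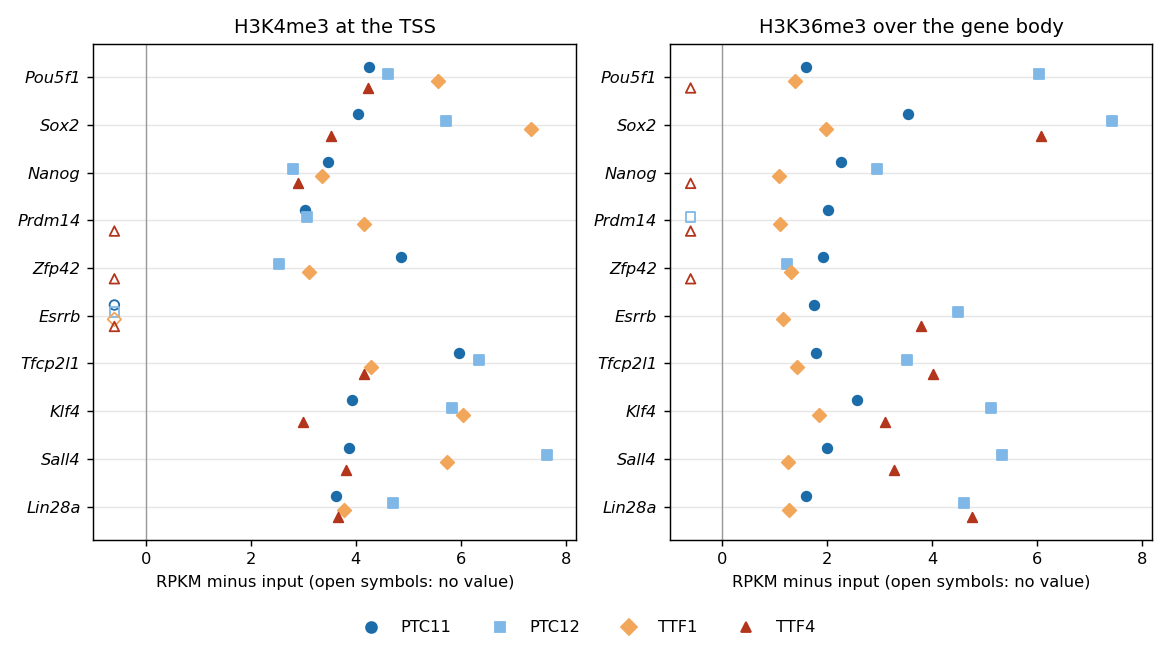
H3K4me3 at the TSS (left) and H3K36me3 over the gene body (right) in RPKM minus input (x axes) at the 10 genes (y axes), 1 symbol a line with no error bar; open symbols left of 0 mark a line without a value. H3K4me3 has open triangles for TTF4 at Prdm14 and Zfp42, and H3K36me3 at these 2 genes and at Pou5f1 and Nanog.

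In the core, H3K4me3 at Pou5f1 was 4.25 RPKM (PTC11), 4.61 (PTC12), 5.56 (TTF1) and 4.24 (TTF4). At Sox2 it was 4.05 and 5.73 in PTC11 and PTC12, and 7.35 and 3.53 in TTF1 and TTF4, the widest span between the 2 TTF lines. Nanog had 2.89 in TTF4 and 3.36 in TTF1, against 3.47 in PTC11 and 2.80 in PTC12, values below the median of all genes in every line. Nanog in TTF4 thus carried H3K4me3 together with an mCpG fraction of 0.362.

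Tfcp2l1 had 5.97 RPKM (PTC11), 6.35 (PTC12), 4.29 (TTF1) and 4.15 (TTF4). It was the 1 gene of the 7 at which both TTF lines lay below both PTC lines, which held for 3.17% of genes, and in PTC11 it exceeded 99.4% of genes with a value. Its means were 6.16 ± 0.268 RPKM (SD, n = 2) for PTC and 4.22 ± 0.0984 (SD, n = 2) for TTF. The difference of -0.46 on the log2(RPKM + 1) scale had an interval from -1.42 to 0.51 (limma adjusted p = 1.00, unadjusted p = 0.355). Klf4 had 3.93 and 5.84 in PTC11 and PTC12, and 6.05 and 2.98 in TTF1 and TTF4, and an unnamed gene model upstream on the other strand holds exactly the same values. Sall4 had 3.81 in TTF4 and 5.74 in TTF1, against 3.88 in PTC11 and 7.65 in PTC12. Lin28a had 3.62 (PTC11), 4.71 (PTC12), 3.77 (TTF1) and 3.66 (TTF4).

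None of the 7 genes was called between origins, against 0.481% of 13709 genes. No unadjusted p from limma was under 0.05, beside 134 of the 13709 genes. On the log2(RPKM + 1) scale the limma differences lay between -0.46 at Tfcp2l1 and 0.11 at Pou5f1, with a median of -0.12, beside 0.045 over all genes. Without PTC11 or TTF1 this median was -0.28 or -0.36, and without PTC12 or TTF4 it turned to 0.10 or 0.08. At 5 of the 7 genes PTC12 and TTF1 both exceeded PTC11 and TTF4, an order that 81.4% of genes with H3K4me3 in all lines shared. The lines thus differed in level across origins, at these genes as at most others, and the larger SD within an origin exceeded the gap between the origin means at Pou5f1, Sox2, Klf4, Sall4, Lin28a and Nanog.

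H3K36me3, laid down behind elongating polymerase, was present over all 10 gene bodies in PTC11 and TTF1, at 9 in PTC12 and at 6 in TTF4. Pou5f1, Nanog and Zfp42 had a value in each line other than TTF4, and 11.1% of the 19156 genes with H3K36me3 in those 3 lines shared that. Over Pou5f1 it was 1.60 RPKM in PTC11, 6.03 in PTC12 and 1.39 in TTF1. Nanog had 2.26 in PTC11, 2.95 in PTC12 and 1.07 in TTF1. Over Zfp42 the values were 1.92 in PTC11, 1.24 in PTC12 and 1.32 in TTF1, and PTC12, the highest of the 3 lines at Pou5f1 and Nanog, was the lowest here. Prdm14 had 2.02 in PTC11 and 1.10 in TTF1, with no value in PTC12 and TTF4. Pou5f1 in TTF4 therefore had H3K4me3 and an mCpG fraction of 0.0786, but no H3K36me3 value, meaning that no peak was kept. TTF4 had the fewest genes with an H3K36me3 value, 20381, against 29905 in PTC11, 23101 in PTC12 and 23466 in TTF1. The paper reports Oct4 staining in PTC and TTF iPSCs.

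The 6 genes with H3K36me3 in every line were Sox2, Klf4, Tfcp2l1, Esrrb, Sall4 and Lin28a. Sox2 had the highest values of these, 3.55 and 7.44 RPKM in PTC11 and PTC12, and 1.97 and 6.08 in TTF1 and TTF4, above 88.5% to 99.4% of genes in each line. Esrrb had 3.78 in TTF4 and 1.16 in TTF1, against 1.75 in PTC11 and 4.49 in PTC12, so its gene body was marked in lines where its upstream TSS had no H3K4me3. Lin28a had 1.60 (PTC11), 4.60 (PTC12), 1.28 (TTF1) and 4.77 (TTF4). Across these 6 genes PTC12 and TTF4 both exceeded PTC11 and TTF1, as at 93.6% of 17039 genes, and TTF1 was the lowest line at each of them.

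No gene of the 6 was called between origins in H3K36me3, against 0.112% of genes. None had an unadjusted p under 0.05 in limma, beside 116 of 17039 genes. On the log2(RPKM + 1) scale the differences lay between -0.49 at Sall4 and -0.03 at Tfcp2l1, with a median of -0.35 beside -0.14 over all genes, and after quantile normalization Tfcp2l1 and Lin28a turned to 0.10 and 0.09. That median was -0.81 without PTC11 and -0.79 without TTF4, and it turned to 0.14 without PTC12 and 0.25 without TTF1. The intervals were wide, from -2.58 to 1.60 at Sall4, whose values were 2.00 and 5.34 RPKM in PTC11 and PTC12, and 1.26 and 3.28 in TTF1 and TTF4. H3K27me3 had values at 11 to 144 genes a library and at none of the 10 genes in any of the 4 libraries, of which both PTC libraries are labelled PTC11. This was a count with no test.

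Other genes of the network were taken from a list of 24 that are known in mouse pluripotent cells and are not among the 10. None of the 23 with mCpG in every line was called between origins. In TTF4, 13 of 23 lay more than 0.2 above the highest other line, beside the 30.1% of all genes. H3K4me3 was present in PTC11, PTC12 and TTF1 at 20 of the 24 genes, and 9 of those 20 had no value in TTF4, beside 7.52% of all genes. The 9 genes were Nr0b1, Dppa2, Dppa3, Dppa4, Dppa5a, Gdf3, Tcl1, Tdh and Tex19.1. The list was chosen with results of these data known, so these shares describe it and test nothing.

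Tcl1, a coactivator of the kinase Akt, had an mCpG fraction of 0.946 in TTF4 and 0.0197 in TTF1, against 0.00476 in PTC11 and 0 in PTC12, with H3K4me3 of 3.64 RPKM in PTC11, 3.19 in PTC12 and 4.00 in TTF1 and no value in TTF4. Its centred difference between origins, 0.394, was the largest of the list (limma adjusted p = 0.836, unadjusted p = 0.0103). It too rests on TTF4, being 0.722 without TTF1 and 0.0655 without TTF4. Tdh, the threonine dehydrogenase of mouse embryonic stem cells, had 0.0650 (PTC11), 0.141 (PTC12), 0.100 (TTF1) and 0.913 (TTF4). Gdf3, a TGF-beta family ligand, had 0.144 in PTC11, 0.129 in PTC12, was listed at 0 in TTF1 and stood at 0.887 in TTF4. Dppa4, which with Dppa2 guards bivalent promoters from methylation, was listed at 0 in PTC11 and had 0.103 in PTC12, 0.0504 in TTF1 and 0.759 in TTF4.

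H3K4me3 was present in all 4 lines at 11 genes of this list, beside 31.2% of the 43984 genes listed, among them Klf2, Klf5, Tbx3, Mycn, Utf1 and Tdgf1. Mycn had mCpG of 0.0230 and 0.0103 in PTC11 and PTC12, and 0.0107 and 0.0128 in TTF1 and TTF4. Fgf4, a target of Oct4 and Sox2, was the exception, with H3K4me3 of 3.58 RPKM and an mCpG fraction of 0.674 in TTF4. Over the 10 genes and this list together, 29 had H3K4me3 in the other 3 lines. Each of the 11 without it in TTF4 had a TTF4 fraction over 0.5, from 0.608 to 0.946, and 1 of the 18 with it did.

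**Figure D4:**
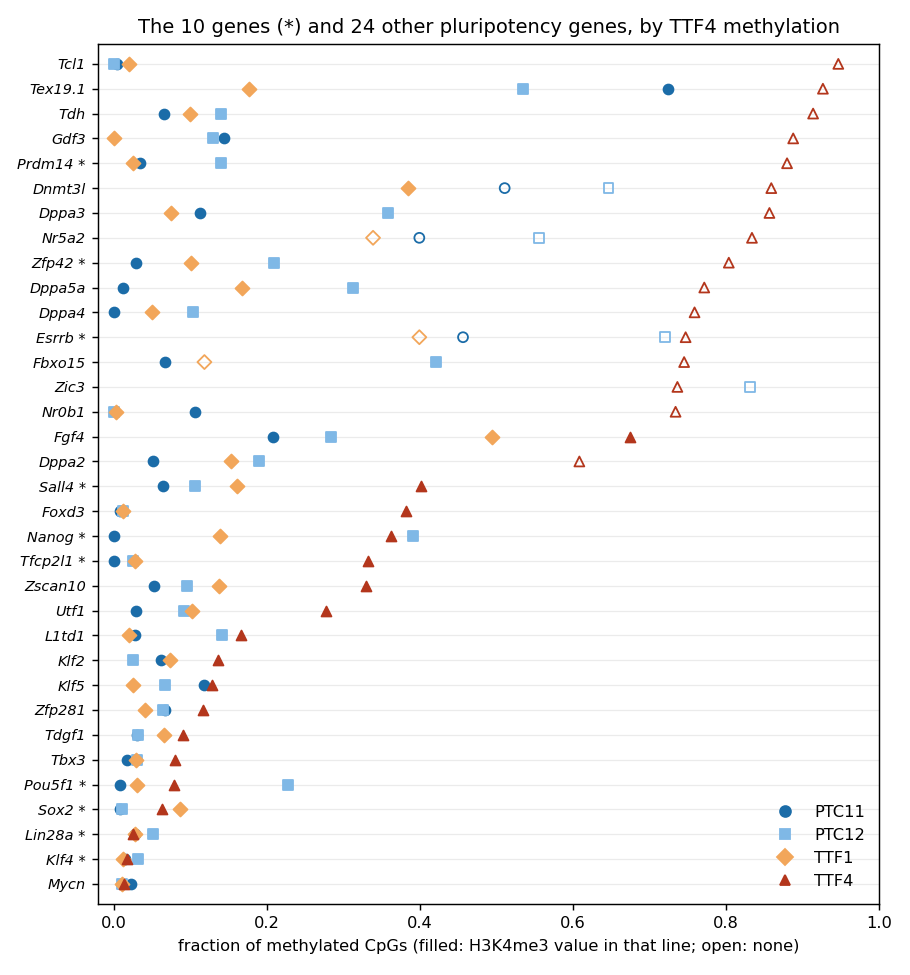
mCpG fraction (x axis) at the 10 genes (marked with *) and 24 other pluripotency genes (y axis, ordered by the TTF4 fraction), with 1 symbol a line, filled where the line has an H3K4me3 value and open where it has none. TTF4 triangles are open at 0.608 and above, except at Fgf4 (0.674), and filled from 0.401 downwards.

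The 3 protein-coding genes whose 4 fractions lay closest to those of Prdm14 by Euclidean distance over the lines were Gipc2 (0.0428), Ccdc170 (0.0618) and Rnf225 (0.0678). All 3 had H3K4me3 in PTC11, PTC12 and TTF1 and none in TTF4. Closest to Zfp42 were Hspb1 (0.0531), Galnt4 (0.0554) and Tmem39a (0.0574), of which Hspb1 and Galnt4 had H3K4me3 in all 4 lines. High methylation within 1000 bp in TTF4 was thus not always joined to absence of H3K4me3.

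Genes of the formative and primed states rise as naive cells move on. All 9 of that list (Otx2, Fgf5, Pou3f1, Dnmt3b, Lef1, Zic2, Sox3, Foxa2 and T) had H3K4me3 in PTC12, TTF1 and TTF4. In PTC11, 8 of them had it. The share of all listed genes with H3K4me3 in TTF4 was 34.9%. The paper describes poised chromatin as holding H3K4me3 and H3K27me3 together. H3K27me3 had values at only 11 to 144 genes a library, so active and poised starts could not be told apart. The part of CpG number in these shares was not tested. Of the 9 genes, 7 were under 0.2 mCpG in every line, beside 12.4% of all genes. Otx2 was the 1 gene of the list over 0.5 in TTF4, at 0.533 in TTF4 and 0.0946 in TTF1, against 0.0566 in PTC11 and 0.146 in PTC12. Of 8 genes of LIF and STAT3 signalling, 7 had H3K4me3 in every line, beside 31.2% of all listed genes, Il6st had none in any, and none lay more than 0.2 higher in mCpG in TTF4 than elsewhere, beside 30.1% of all genes. No gene of either list was called between origins in mCpG, H3K4me3 or H3K36me3. All 12 housekeeping promoters had H3K4me3 in every line, and 1 of the 12 stood more than 0.2 higher in mCpG in TTF4 than in any other line, again beside 30.1% of all genes.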

How the data were processed

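Values per gene came from H3K4me3, H3K36me3 and H3K27me3 ChIP-seq and nanopore methylation libraries of iPSC lines PTC11, PTC12, TTF1 and TTF4. The authors aligned ChIP reads to mm10 with Bowtie2 2.1.0, called peaks against input with MACS2 2.0.10, counted reads in peaks with bedtools 2.17.0 and deposited the RPKM above input, averaged per gene. For nanopore reads the authors used minimap2 and Nanopolish, and they deposited the fraction of methylated CpGs around the TSS, as a mean of sliding windows. Nanopore coverage was not given, so its depth and counting error are unknown.

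Lines were grouped by the origin in their labels. TTF was tested against PTC, over genes measured in all 4 lines, with limma 3.58.1 in R 4.3.3 (a variance trend in eBayes) on log2(RPKM + 1), which understates changes of low genes, or on fractions centred on the mean of the line, with Benjamini-Hochberg adjustment over all genes tested and 95% intervals. The step was tested on simulated data. H3K27me3 was only counted. Python 3.11.15 was used for the rest. Alternatives varied the pseudocount, a filter on low values, normalization, scale, variance trend, missing values, margins and each line left out.

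The 10 genes and the lists (24 general pluripotency, 8 LIF and STAT3, 9 formative and primed, 12 LIN28 and let-7, 10 PRDM14 partner, 12 housekeeping, 16 fibroblast and 14 proximal tubule genes) were chosen with earlier results of these data known. All of the 10 genes were named. From the lists, genes were named for an adjusted p under 0.05, for the largest differences up or down, or for the largest TTF4 excess, and from the rest after their values were seen. For genes spanning over 0.5 in mCpG, the 3 nearest protein-coding genes were named. CpGs were counted in GRCm38 and annotation came from GENCODE.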

Additional observations from a re-analysis of the deposited data

How the results depend on the processing

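No paired analysis was possible because PTC and TTF lines have no number in common, and the numbers that H3K27me3 libraries share belong to no test. No setting that kept all lines called any of the 10 genes in any assay. Fits that leave 1 line in an origin are given by their differences only. Of 130 single-gene differences under settings that kept all lines, 9 turned direction and none passed the threshold, and the cause was not tested. These were Sox2 in H3K4me3 (-0.0153 with quantile normalization), Tfcp2l1 (0.10) and Lin28a (0.0882) in H3K36me3 with quantile normalization, and in mCpG Nanog and Sox2, at 0.0543 and 0.0651 without centring, 0.0149 and 0.0749 with quantile normalization, and 1.10 and 2.08 on the logit scale. The median mCpG difference over the 10 genes was 0.0597 without centring, 0.0449 with quantile normalization and 1.14 on the logit scale, and the 4 genes with a TTF4 excess over 0.2 became 2 on centred fractions.

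Calls over all genes moved with pseudocount 0.1 (102 in H3K4me3, 44 in H3K36me3), with a value asked of 1 line of each origin (183, 29, and 4 in mCpG), and fell to 0 in both marks with a mean of at least 1 RPKM, with quantile normalization and with no variance trend, where 14 and 4, 318 and 502, and 3 and 4 genes had an unadjusted p under 0.05 in limma. In mCpG they were 0 without centring, with quantile normalization and on the logit scale, 6 among genes with a mean fraction under 0.5 and 1 with no variance trend. Quantile normalization moved the median difference of all genes in H3K36me3 from -0.14 to 0.01.

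Leaving out each line in turn gave 78 to 138 calls in H3K4me3, 1 to 53 in H3K36me3 and 0 to 1003 in mCpG, where the extremes were the fits without PTC12 (0) and without TTF1 (1003). The count of the 10 genes called in mCpG was 0 to 2, and their median difference ran from -0.0600 to 0.0331, beside -0.36 to 0.10 in H3K4me3 and -0.81 to 0.25 in H3K36me3. In H3K4me3 the ranges were -0.0513 to 0.27 at Pou5f1, -0.12 to 0.12 at Nanog, -0.36 to 0.52 at Sox2, -0.54 to 0.28 at Klf4, -0.28 to 0.0290 at Lin28a and -0.60 to 0.22 at Sall4. Tfcp2l1 kept its direction, from -0.49 to -0.42. With all lines kept and quantile normalization, its H3K4me3 difference was -0.495 (limma unadjusted p = 0.0678), and it was not called. In H3K36me3 they were -1.06 to 0.19 at Sox2, -0.85 to 0.30 at Esrrb, -0.56 to 0.49 at Tfcp2l1, -0.74 to 0.60 at Lin28a, -1.03 to 0.0499 at Sall4 and -0.84 to -0.07 at Klf4. In mCpG they were -0.174 to 0.108 at Nanog, -0.169 to 0.125 at Sox2, -0.229 to 0.0365 at Klf4, -0.237 to 0.0365 at Lin28a, -0.0135 to 0.570 at Prdm14, 0.0298 to 0.462 at Zfp42, -0.261 to -0.0395 at Pou5f1, -0.180 to -0.0252 at Esrrb, 0.0380 to 0.122 at Tfcp2l1, 0.0737 to 0.143 at Sall4 and 0.0655 to 0.722 at Tcl1. In a fit without 1 line, the lone line of that origin is assumed to vary like the others. Since coverage is unknown, a fraction of 0, as at Nanog and Tfcp2l1 in PTC11, may rest on few reads.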

Other observations

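Of 12 genes of the LIN28 and let-7 pathway none was called between origins in any assay. Lin28b, the paralogue of Lin28a, had mCpG fractions of 0.00921 and 0.0162 in PTC11 and PTC12, and 0.0153 and 0.129 in TTF1 and TTF4, and H3K4me3 in each line other than PTC11. Trim71, a let-7 target that pluripotent cells express, had 0.0434 in TTF4 and 0.00139 in TTF1, against 0.00384 in PTC11 and 0.00542 in PTC12. The let-7 genes differed among themselves. Around the start of Mirlet7i the fraction was listed at 0 in both PTC lines and was 0.0144 in TTF1 and 0.0307 in TTF4, with H3K4me3 in every line. At Mirlet7a-1 it was 0.422 (PTC11), 0.333 (PTC12), 0.577 (TTF1) and 0.997 (TTF4), and at Mirlet7g 0.354 and 0.164 in PTC11 and PTC12, and 0.395 and 0.946 in TTF1 and TTF4. Mirlet7d had 0.917 in TTF4 and 0.124 in TTF1, against 0.420 in PTC11 and 0.543 in PTC12. These starts are those of the annotated hairpins and not of the primary transcripts. Mirlet7a-1, Mirlet7g and Mirlet7d were the 3 of the 12 genes with a TTF4 excess over 0.2, beside 30.1% of all genes. Lin28a stood at 0.0249 in TTF4, and a link to those starts was not tested.

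Among 10 partners and targets of Prdm14, none was called between origins and 4 had a TTF4 excess over 0.2 in mCpG, beside 30.1% of all genes. Cbfa2t2, the corepressor that Prdm14 binds, had 0.115 (PTC11), 0.213 (PTC12), 0.0520 (TTF1) and 0.0977 (TTF4), with H3K4me3 in all lines. Dnmt3b, a methyltransferase gene that Prdm14 represses, had H3K4me3 of 4.53 RPKM in PTC11, 5.86 in TTF1 and 5.01 in TTF4, and PTC12 was the highest of the lines. H3K36me3 over Dnmt3b was 7.27 RPKM in TTF4 and 1.44 in TTF1, against 1.54 in PTC11 and 5.00 in PTC12, the 2 high lines being those that were high at 93.6% of genes. Tet1, which encodes a 5-methylcytosine dioxygenase, had mCpG of 0.458 (PTC11), 0.779 (PTC12), 0.310 (TTF1) and 0.982 (TTF4), and H3K4me3 in PTC12 and TTF1 only.

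No gene of the fibroblast or proximal tubule lists was called between origins in mCpG, H3K4me3 or H3K36me3. A TTF4 excess over 0.2 in mCpG was found at 3 of 16 fibroblast markers and 8 of 14 proximal tubule markers, beside 30.1% of all genes.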
